A study of Mus musculus with 4 samples.

Results

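Cd28, Il7r, Cd4, Ighm and Cd22, genes best known as lymphocyte markers, were read in 4 RNA libraries from mouse macrophages. They are 5 of the 55536 annotated genes in the gene tables, and they were chosen by name because RNA of each had been detected in these libraries. Their presence and their levels are therefore a description, with no test. The cells were bone marrow-derived macrophages (BMDM) of strain C57BL/6J, primary cells grown from marrow progenitors, given lipid A at 100 ng/ml for 15 minutes. Lipid A is the part of bacterial lipopolysaccharide that TLR4 senses. RNA of the cytosolic fraction was depleted of ribosomal RNA, and each library started from 1 µg. All 4 libraries, replicates 1 to 4 of the labels, belong to this 1 group, with no untreated sample and no nuclear fraction analysed here. The labels call them biological replicates, point to a shared donor record and give sex and age as not collected. They do not state separate animals or cultures, so a p-value here measures only how far these libraries spread, which may be technical.

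CD28 is the co-stimulatory receptor of T cells and binds CD80 and CD86 on antigen-presenting cells. IL-7Rα, the product of Il7r, pairs with the common γ chain to bind IL-7, which lymphocyte precursors need, and with the receptor encoded by Crlf2 to bind TSLP. CD4 is the co-receptor of helper T cells for MHC class II. Human monocytes and macrophages also carry CD4, whereas mouse macrophages are usually described as low for it or lacking it. Ighm encodes the constant region of the IgM heavy chain, which a B cell joins to a rearranged variable region, and CD22 is an inhibitory, sialic acid-binding receptor of B cells.

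The libraries held 30088678, 47961117, 40282297 and 45771235 expected counts over annotated genes in replicates 1, 2, 3 and 4. Expected counts are read counts in which a read that fits several transcripts is shared out by the quantifier. TPM, a level that corrects for transcript length, sums to a fixed total in each library. The RNA of the signal recognition particle (7SL, listed as Rn7s1 and Rn7s2) took 57.1% to 63.3% of all TPM in the gene tables and 13.1% to 26.4% in a second quantification made directly from reads, here called the target tables. A TPM of any other gene depends on that share, so changes between libraries were tested on counts. All 10 genes of the macrophage list were at or above 1 TPM on average, with Lyz2 at 5104 ± 1259 TPM and Csf1r, the receptor for M-CSF, at 264 ± 58.1 TPM (SD, n = 4).

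Replicate 1 stood apart from the others over the whole transcriptome. In edgeR's quasi-likelihood test of replicate 1 against the other 3, 2031 of 14041 tested genes were higher (14.5%) and 1065 were lower (7.58%) at a Benjamini-Hochberg adjusted p under 0.05. With counts of the target tables the split was 2223 higher and 520 lower. The same test called 0 genes higher (0%) and 0 lower (0%) in replicate 2, in replicate 3 and in replicate 4, while 277, 135 and 104 genes had an unadjusted p under 0.05 there, and DESeq2 called 8, 3 and 17 genes. A lone replicate adds no residual degrees of freedom, so each test assumes that it varies like the other 3. In the tests of replicates 2, 3 and 4 the other 3 include replicate 1, and its distance from the rest widens the error. The lack of calls there does not show that those replicates are alike.

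The genes fell into an order that spanned more than an order of magnitude. A gene is called detected here at a mean of at least 1 TPM, which 18.6% of all annotated genes reached. That share is given for scale only, because the 5 genes were chosen for being detected. Cd22, the lowest of them, lay just inside the threshold with a mean of 2.47 TPM, and the nearest lymphocyte list gene outside it was Cd79b with a mean of 0.865 TPM.

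Cd28 was the most abundant of the 5. Its level was 68.8, 81.6, 77.9 and 113 TPM in replicates 1, 2, 3 and 4, a mean of 85.4 ± 19.3 TPM (SD, n = 4), from 13585, 31498, 24384 and 30374 expected counts. Only 0.963% of annotated genes had a higher mean TPM. The gene lies on chromosome 1 from 60716800 to 60773359 on the plus strand (mm10, GENCODE M21), with no neighbour above 4.92 TPM among the 2 nearest annotated genes on either side.

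Il7r had 31.9, 27.3, 33.1 and 28.3 TPM in replicates 1 to 4 and a mean of 30.1 ± 2.81 TPM (SD, n = 4), the smallest relative spread of the 5 in the gene tables. In the target tables its spread was wide, at 17.2, 9.38, 9.06 and 7.97 TPM in replicates 1 to 4 and a mean of 10.9 ± 4.24 TPM (SD, n = 4). Its expected counts were 4741, 8033, 7868 and 5788. It lies on the minus strand of chromosome 15 from 9505788 to 9530176.

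Cd4 stood at 12.5, 21.7, 20.8 and 23.6 TPM in replicates 1 to 4, with 1508, 5378, 4114 and 4365 expected counts and a mean of 19.7 ± 4.93 TPM (SD, n = 4). Replicate 1 was below the range of the other 3. The gene lies on the minus strand of chromosome 6 from 124864692 to 124888221, and 708 bases separate it from Gpr162 on the same strand, which had a mean of 31.7 TPM. On the minus strand Gpr162 lies after the end of Cd4. Read-through from Cd4 into Gpr162 was not tested.

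Ighm varied most. It was at 0.59, 4.71, 3.09 and 8.44 TPM in replicates 1 to 4, a mean of 4.21 ± 3.29 TPM (SD, n = 4), from 38, 600, 329 and 755 expected counts. Its highest TPM was 14.3 times its lowest, against 1.21 times for Il7r. Ighm lies on the minus strand of chromosome 12 from 113418558 to 113422730.

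Cd22 was low and even, at 2.26, 2.21, 2.55 and 2.87 TPM in replicates 1 to 4, from 361, 590, 625 and 653 expected counts, with a mean of 2.47 ± 0.304 TPM (SD, n = 4). It lies on the minus strand of chromosome 7 from 30865402 to 30880342, and the antisense gene Gm29439 that overlaps it had no counts. No source used here says whether strand was used in counting, so sense and antisense reads cannot be told apart.

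In the gene tables the ranges of Cd28, Il7r and Cd4 did not overlap one another or those of the lower pair, and this order held in 4 of 4 libraries. Ighm and Cd22 overlapped, with Ighm above Cd22 in 3 of 4 libraries and below it in replicate 1. The target tables gave the same order of means at lower values, 30.1, 10.9, 7.13, 1.35 and 1.05 TPM for Cd28, Il7r, Cd4, Ighm and Cd22, but there the ranges of Il7r and Cd4 overlapped, since the lowest Il7r level (7.97 TPM, replicate 4) was below the highest Cd4 level (8.16 TPM, replicate 2). Estimated counts were closer to those of the gene tables. For Cd28 the target tables held 1.11 to 1.13 times the expected counts of the gene tables. The ratio of mean gene-table to mean target-table TPM lay between 2.35 (Cd22) and 3.13 (Ighm) for the 5 genes, beside a median of 2.61 over 10251 detected genes, and the median ratio of target to gene counts over those genes was 1.09. The order of the libraries on the TPM scale was not the same in the 2 quantifications. Replicate 1 had the lowest Cd28 TPM in the gene tables, 68.8 TPM, and the highest in the target tables, 37.2 TPM.

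**Figure D1:**
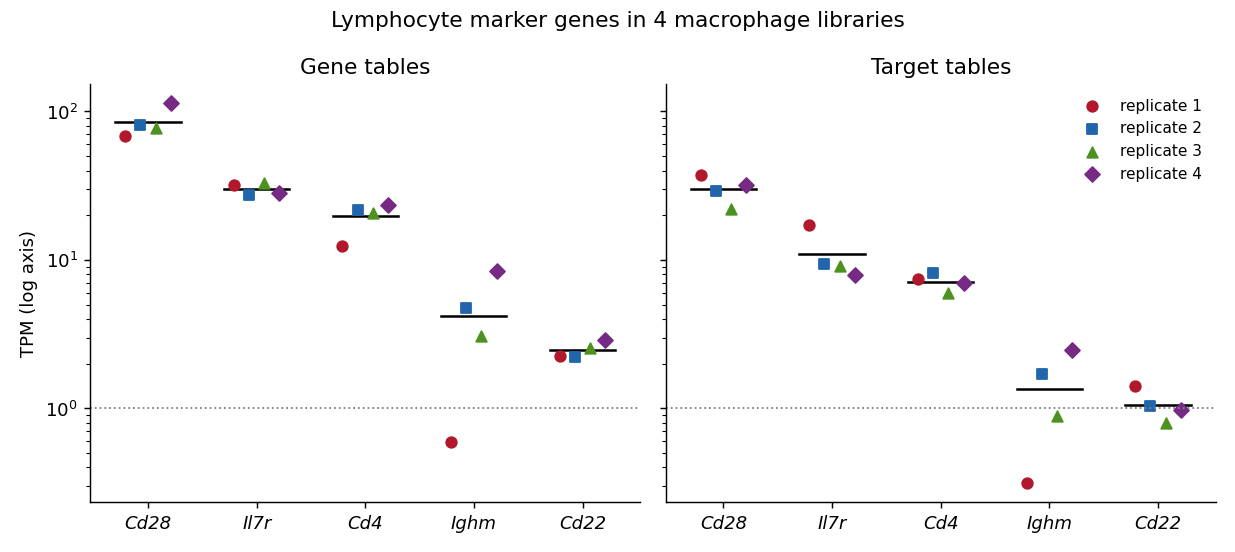
TPM (log axis) of the 5 genes in each library, in the gene tables (left) and the target tables (right). Points are libraries, bars are means over 4 libraries and the dotted line is 1 TPM. Cd28 is highest and Ighm is spread widest, with replicate 1 at 0.59 TPM in the gene tables.

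The transcript tables show which annotated transcripts carried the signal. For Cd28, almost all of it was the full coding transcript. Cd28-201, 4347 bases long with a coding sequence of 654 bases, took 99.75%, 99.78%, 98.80% and 97.79% of the deposited isoform share in replicates 1 to 4. The remainder was Cd28-203, a retained-intron transcript with 1291 bases that are intron in Cd28-201, and Cd28-202, a processed transcript, had no expected counts. The target tables gave Cd28-201 a mean of 98.99% ± 0.961 (SD, n = 4). Of the 4347 bases, 3577 lie after the coding sequence, so most of the RNA assigned to it could come from outside the coding part, which gene-level and transcript-level totals do not separate.

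Il7r RNA was also mostly assigned to the full coding transcript, in which 2070 bases lie after the coding sequence. Il7r-201, 3540 bases long with 1377 coding bases, took 92.04%, 92.22%, 90.22% and 90.38% of the isoform share in replicates 1 to 4. Il7r-204, the other coding transcript, took 0.71%, 2.02%, 2.51% and 1.62%, with 35.53, 169.86, 209.38 and 99.59 expected counts. It uses an earlier donor site in exon 7 and leaves out 17 bases, chr15:9508707-9508723 on the minus strand, after which its coding sequence is 858 bases long instead of 1377. The stretch of Il7r-201 around them, from the GENCODE M21 transcripts (mm10), is shown 5′ to 3′ because it holds the bases that separate the full-length coding sequence from the short form, and capitals mark the 17 bases that Il7r-204 leaves out.
Il7r-201, end of exon 7 and start of exon 8: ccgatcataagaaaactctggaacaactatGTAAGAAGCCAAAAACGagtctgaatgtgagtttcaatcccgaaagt
The short form was assigned reads in each library in both quantifications. Its share was lowest in replicate 1 in both, 0.71% of isoform share in the transcript tables and 0.602% of the gene's TPM by the target quantification. This minimum is uncertain, since the 35.53 expected counts in replicate 1 carried a deposited posterior SD of 21.43 counts.

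Cd4 RNA was mainly Cd4-201, 3108 bases with 1371 coding bases, at 85.88%, 90.11%, 87.60% and 96.43% of the isoform share in replicates 1 to 4. Most of the rest was Cd4-203, a 591-base processed transcript without a coding sequence, at 14.12%, 9.81%, 11.94% and 3.04%. Per count the picture is more one-sided. Coding transcripts held 98.5% ± 0.642 of the Cd4 expected counts but 90.0% ± 4.61 of its TPM (SD, n = 4), because a short transcript with few reads gives a large TPM. In replicate 1, Cd4-203 had 30.30 expected counts, which made 1.76 TPM, and Cd4-201 had 1477.70 expected counts and 10.70 TPM. In the target tables, coding transcripts held 81.7% ± 5.85 of the Cd4 TPM.

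Ighm has 2 annotated transcripts, both constant-region transcripts, so all of its RNA counts as coding by class. They differ at the 3′ end. Ighm-201 ends in the tail of secreted IgM and Ighm-202 in the membrane anchor of the B cell receptor. The transcripts share 1305 coding bases and then part. The coding ends are printed 5′ to 3′ from the GENCODE M21 transcripts (mm10, chromosome 12) because they help decide which form a read is assigned to. The 129 bases after the coding sequence of Ighm-201 and the 271 of Ighm-202 are not shown. Lower case marks the last 30 shared bases and capitals the coding bases that only that transcript has, all 59 for Ighm-201 and the first 120 of 122 for Ighm-202.
Ighm-201: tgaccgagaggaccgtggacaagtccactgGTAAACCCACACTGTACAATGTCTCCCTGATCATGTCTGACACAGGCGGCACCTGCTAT
Ighm-202: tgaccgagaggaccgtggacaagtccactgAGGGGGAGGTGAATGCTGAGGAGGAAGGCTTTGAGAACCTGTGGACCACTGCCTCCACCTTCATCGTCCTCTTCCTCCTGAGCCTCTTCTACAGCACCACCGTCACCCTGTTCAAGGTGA
The secreted form took 61.29%, 60.11%, 45.13% and 64.53% of the isoform share in replicates 1 to 4, and the membrane form took 38.71%, 39.89%, 54.87% and 35.47%. Both forms were assigned reads in all 4 libraries, down to 21.91 and 16.09 expected counts in replicate 1. The form in the lead was not stable for replicate 3, where Ighm-202 led in the transcript tables and Ighm-201 led in the target tables with 52.2%.

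Cd22 could be assigned least well. The annotation holds 16 transcripts for it, and the leading transcript differed between the quantifications in 4 of 4 libraries. In the transcript tables Cd22-201 led in replicates 1, 2 and 3 with 79.88%, 65.02% and 52.99% of the isoform share, and Cd22-202 led in replicate 4 with 36.37%. In the target tables Cd22-210 led in replicates 1, 3 and 4 and Cd22-209 in replicate 2. The deposited TPM of Cd22 lay below the credibility interval deposited beside it in 4 of 4 libraries, at 2.26 TPM with an interval of 2.69 to 4.62 TPM in replicate 1. That of Cd28 lay above its interval in 4 of 4 libraries, at 68.84 TPM with an interval of 65.97 to 68.24 TPM in replicate 1, so this is not a mark of Cd22 alone. Among these leading transcripts, Cd22-201, Cd22-202 and Cd22-210 each have a coding sequence of 2604 bases. Coding transcripts together held 84.0%, 96.4%, 72.5% and 92.3% of the Cd22 TPM in replicates 1 to 4, a mean of 86.3% ± 10.5 (SD, n = 4), and 79.7% ± 9.90 in the target tables. The next class was nonsense-mediated decay transcripts, with 7.94% ± 5.42 of the TPM in the transcript tables and 17.8% ± 6.77 in the target tables.

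**Figure D2:**
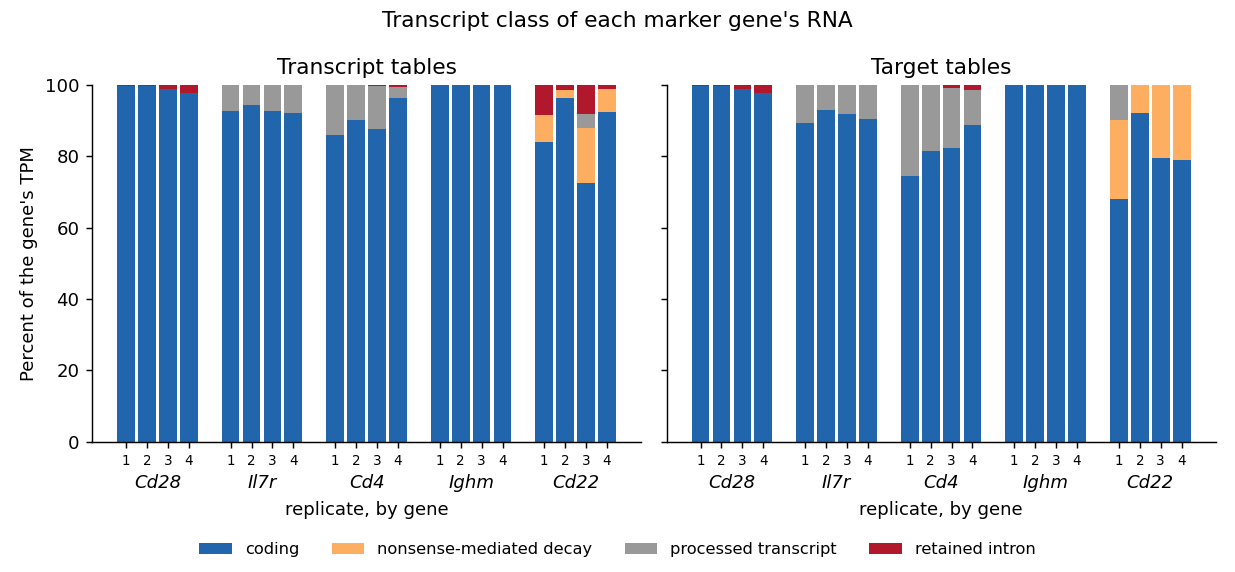
Percent of each gene's TPM by annotated transcript class in replicates 1 to 4, in the transcript tables (left) and the target tables (right). Coding transcripts (blue) hold at least 97.7% of Cd28 in every library, whereas the coding share of Cd22 lies between 72.5% and 96.4% in the transcript tables.

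Retained-intron transcripts of Cd28 and Cd4, and Il7r-202, were a small part of these 3 genes. They were larger in replicates 3 and 4 than in replicates 1 and 2. Cd28-203 had 0.17, 0.18, 0.93 and 2.50 TPM in replicates 1 to 4. Il7r-202, which holds 987 bases that are intron in Il7r-201, had 0.35, 0.19, 0.60 and 0.92 TPM. The retained-intron transcripts of Cd4 summed to 0, 1.26, 8.22 and 9.18 expected counts. The retained-intron class of Cd22 did not share this split. It held 8.44%, 1.36%, 8.24% and 1.05% of the gene's TPM in replicates 1 to 4, from at most 2.6 expected counts in a library. The coding transcript Cd22-210, with 342 bases that are intron in another Cd22 transcript, did. It had 0, 0.17, 0.5 and 0.86 TPM, and 0.325, 0.166, 0.376 and 0.461 TPM in the target tables. Its assignment is uncertain, with 196.77 expected counts and a posterior SD of 77.93 counts in replicate 4. Cd22-208, Cd22-214 and Cd22-216, with 74, 19 and 55 such bases, did not share the split in the transcript tables. The nuclear RNA Malat1 had its 2 highest levels in replicates 3 and 4, at 306, 242, 984 and 941 TPM in replicates 1 to 4, as did Neat1, at 35.1, 25.0, 115 and 79.4 TPM. The part of nuclear RNA in the retained-intron values was not tested.

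The genes that complete a T cell or B cell were near 0 beside these 5. Of 48 other genes on the T cell and B cell lists, 1 was detected and 10 had no count in any library. Over all annotated genes 18.6% were detected. None of the 25 T cell genes was detected, and the highest was Lat, a T cell adaptor, with 0.303 TPM. The 8 genes of the T cell receptor and CD3 list never exceeded 2.02 expected counts in a library, and their summed counts were 1, 3, 5.02 and 5 in replicates 1 to 4. Lck, the kinase that binds CD4 and starts T cell receptor signalling, averaged 5.75 counts, and Cd8a averaged 0.5 counts. In bulk RNA, a few cells with much of an RNA cannot be told apart from many cells with little of it.

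On the B cell list Cd72 was detected, and Cd79b and Igkc, at means of 0.865 and 0.67 TPM, lay above every T cell list gene. Cd79a, whose product carries the signal of the B cell receptor with that of Cd79b, averaged 2.25 counts and Pax5, the transcription factor that keeps B cell identity, averaged 1.5 counts. Cd79b was at 0.65, 0.85, 0.77 and 1.19 TPM in replicates 1 to 4. Cd72, an inhibitory receptor of B cells that binds class IV semaphorin, was at 30.8, 16.4, 17.9 and 21.9 TPM, above Cd4, Ighm and Cd22 in replicate 1. Cd72 was higher in replicate 1 than in the other 3 (log2 fold change 0.46 ± 0.11, edgeR adjusted p = 0.0410), a call lost by edgeR with RLE scaling (adjusted p = 0.0533), without replicate 2 (0.0543) and without replicate 4 (0.0777). Natural killer and innate lymphoid cell lists had 0 of 6 genes each at 1 TPM. Of the plasmacytoid dendritic cell list 3 of 6 were detected (Bst2, Tcf4 and Irf8), while Siglech was at 0.263 TPM. Of the neutrophil list 3 of 7 were detected, S100a9 at 14.8 ± 4.89, S100a8 at 10.3 ± 1.86 and Ngp at 2.32 ± 1.17 TPM (SD, n = 4), and of the conventional dendritic cell list 2 of 7, Itgax at 1.84 ± 0.742 and Batf3 at 1.58 ± 0.804 TPM (SD, n = 4). The mast cell and basophil list had 0 of 5. The summed T cell receptor and CD3 counts were highest in replicates 3 and 4, at 5.02 and 5 counts against 1 and 3. Such counts are too few to rank the libraries. No marker list was tested for a part in the levels of the 5 genes.

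**Figure D3:**
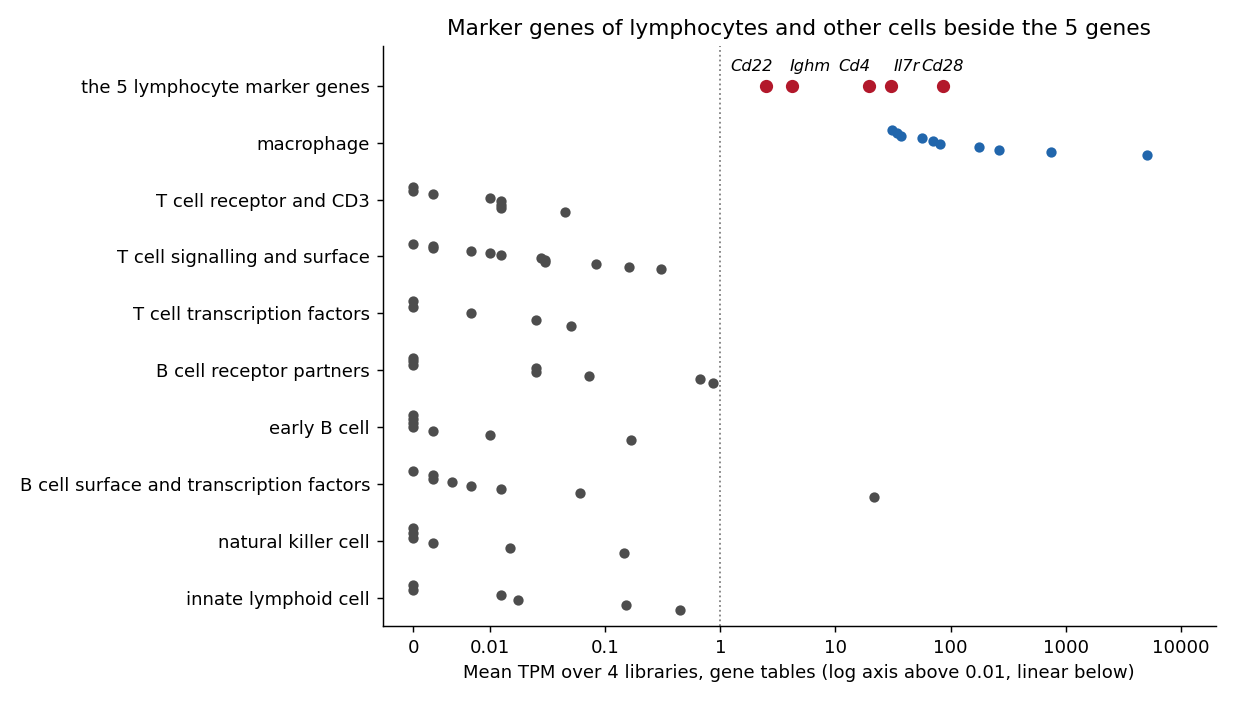
Mean TPM over 4 libraries (log axis above 0.01, linear below) of the 5 genes (red), the macrophage list (blue) and lymphoid marker lists (grey), with 1 point per gene and a dotted line at 1 TPM. The 5 genes lie to the right of the line, and of the T cell and B cell list genes Cd72 alone does, at 21.7 TPM.

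Among immunoglobulin features, Ighm held most of the counts in replicates 2, 3 and 4. The other 12 immunoglobulin constant genes summed to 50, 35, 33 and 34 expected counts in replicates 1 to 4, against 38, 600, 329 and 755 for Ighm, so that in replicate 1 they exceeded it. Igha averaged 18.8 counts and Igkc, the κ light chain constant gene, 13.5 counts. Ighd, which lies 2233 bases from Ighm on the same strand, had 1, 6, 6 and 0 counts. All 218 immunoglobulin variable genes together had 8, 8, 10 and 14 counts, and the diversity and joining segments had none in any library. A count of 0 allows up to 3 counts per library, which is 0.0626 to 0.0997 CPM (counts scaled to a common library total), for counting error only. Reads over a rearranged junction match no germline segment in full, so these totals may miss them.

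T cell receptor features were at the floor except for variable genes. The 8 constant genes summed to 0, 2, 0 and 1 counts in replicates 1 to 4. Variable genes summed to 65, 111, 99 and 153 counts, of which Trav13-4-dv7 on chromosome 14 held 39, 77, 71.91 and 96. With few bases in its transcript those reads made a mean of 9.26 TPM, more than the mean of Ighm. This gene belongs to a family of near-identical copies among which reads can be split, and its value is uncertain.

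**Figure D4:**
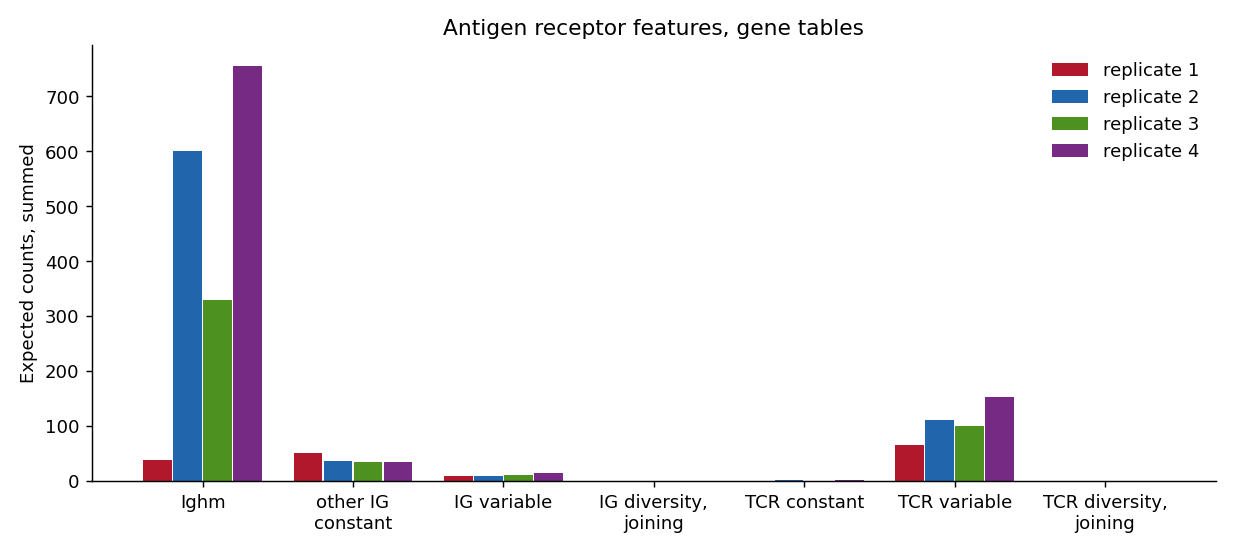
Summed expected counts of antigen receptor features in replicates 1 to 4, by class. Ighm holds 600, 329 and 755 counts in replicates 2, 3 and 4 and 38 in replicate 1, while diversity and joining segments are at 0.

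Counts of the 5 genes were then compared between libraries, as CPM. The log2 fold changes include TMM scaling between libraries and these CPM do not, so the fold changes differ from ratios of the CPM. Replicate 1 was lower for 3 of the 5 and higher for none, where 7.58% of all tested genes were lower and 14.5% were higher. Ighm had 1.26 CPM in replicate 1, against a mean of 12.4 CPM in the other 3, a log2 fold change of -3.39 ± 0.44 (SE) with an edgeR adjusted p of 0.00917, and 113 of 14041 genes had a larger absolute change. Cd4 had 50.1 CPM in replicate 1, against 103 CPM in the other 3 (log2 fold change -1.16 ± 0.17, edgeR adjusted p = 0.0112). Cd28 had 451 CPM in replicate 1, against 642 CPM (-0.62 ± 0.12, edgeR adjusted p = 0.0254). The Cd28 call was lost with counts of the target tables (log2 fold change -0.48, adjusted p = 0.147) and without replicate 2 (-0.58, adjusted p = 0.0813), both by edgeR.

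Il7r and Cd22 did not pass the test in replicate 1. Il7r had 158 CPM in replicate 1 and 163 CPM in the other 3 (log2 fold change -0.18 ± 0.30, edgeR adjusted p = 0.700), and Cd22 had 11.998 CPM in replicate 1 and 14.03 CPM in the other 3 (-0.34 ± 0.18, edgeR adjusted p = 0.243). In the tests of replicates 2, 3 and 4 none of the 5 genes passed, and the smallest edgeR adjusted p among them was 0.991. The largest of those changes was that of Ighm in replicate 4, with 16.5 CPM against 7.31 CPM in the other 3 (log2 fold change 1.03 ± 1.14). Replicate 1 is among the other 3 in these tests and widens their error, so they could miss changes of the 5 genes.

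In a Poisson deviance test with 3 degrees of freedom, 11622 of 14041 genes (82.8%) varied between libraries by more than counting error. The 5 genes were among them, which at that background, and with a test that abundant genes pass easily, is no result about these genes. The SD of log2 CPM, here scaled by TMM, was 1.69 for Ighm, which 1.49% of genes exceeded. It was 0.60 for Cd4, 0.34 for Il7r, 0.31 for Cd28 and 0.23 for Cd22, against a median of 0.25 over all tested genes. Il7r stood apart in another way from Cd4 and Ighm, since its lowest library was replicate 4 (126 CPM) and its highest replicate 3 (195 CPM).

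**Figure D5:**
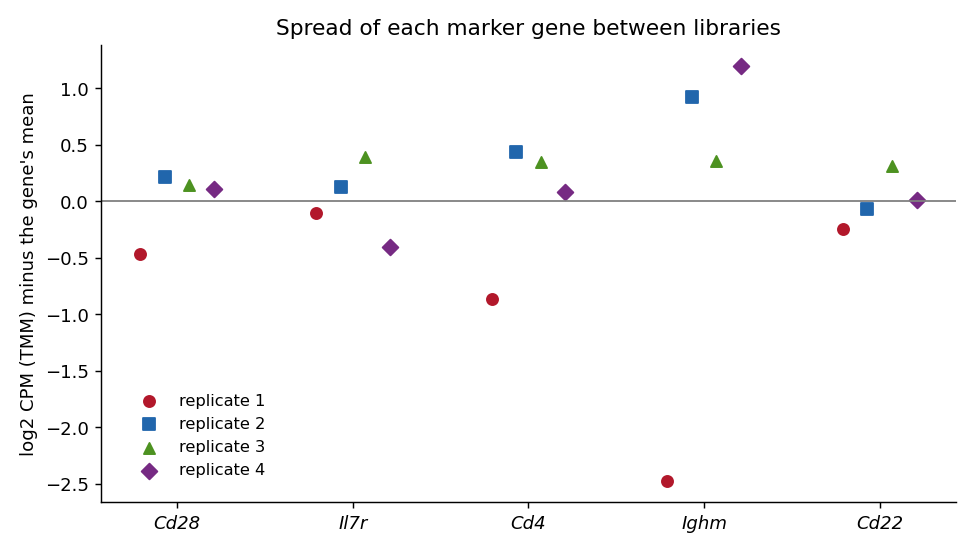
Log2 CPM, scaled by TMM, of each gene in each library minus the gene's mean over 4 libraries. Replicate 1 is the lowest library for Cd28, Cd4, Ighm and Cd22, and Ighm lies 2.47 below its mean there, while replicate 4 is the lowest for Il7r.

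Ligands and partners of the 5 receptors were read from lists, and no list was tested as a set. Counts of list genes called in replicate 1 are to be read beside the shares of all tested genes given above. Those of the IL-7 receptor and CD22 lists lie near these shares. For detection the share of all annotated genes was 18.6%. For CD4, 7 of 10 list genes were detected. Cd74, the invariant chain of MHC class II, was at 94.5 ± 15.1 TPM, and H2-Aa, H2-Eb1 and H2-Ab1, chains of the MHC class II molecules that CD4 binds, were at 34.5 ± 8.33, 22.8 ± 7.60 and 21.3 ± 5.27 TPM (SD, n = 4). In replicate 1, 6 of 9 tested list genes were lower and 0 were higher than in the other 3, with a median log2 fold change of -0.94 beside -0.0045 over all tested genes. Counts of the target tables called 5 of 9 lower. The 6 were H2-Aa, H2-Ab1, H2-Eb1, H2-DMa, Il16 and Ciita. H2-Eb1 had a log2 fold change of -0.98 ± 0.17 (edgeR adjusted p = 0.0185), beside -1.16 ± 0.17 for Cd4. Ciita, the transcriptional master regulator of MHC class II, was at 0.10 TPM in replicate 1, against 0.53, 0.71 and 1.02 TPM in replicates 2, 3 and 4 (log2 fold change -3.04 ± 0.29, edgeR adjusted p = 0.00475).

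For CD28, 4 of 9 genes of the ligand and family list were detected. Its ligands Cd86 and Cd80 were at 10.4 ± 5.09 and 4.13 ± 1.14 TPM, and Cd274, which encodes the PD-1 ligand PD-L1, was at 24.8 ± 8.36 TPM (SD, n = 4). The relatives of CD28 on T cells were near 0, with Ctla4, Icos and Pdcd1 averaging 1.25, 4 and 0.25 counts. Cd86 had 4.2 TPM in replicate 1, against 10.55, 10.01 and 16.66 TPM in replicates 2, 3 and 4, and was lower by edgeR (log2 fold change -1.52 ± 0.15, adjusted p = 0.00537), as was Cd274 (-1.25 ± 0.11, adjusted p = 0.00389). Cd80 did not pass (0.13 ± 0.16, edgeR adjusted p = 0.597). Of the signalling genes downstream of CD28, 5 of 8 were detected, among them Grb2, an adaptor, at 105 ± 32.3 TPM and Vav1, an exchange factor, at 35.9 ± 7.89 TPM, while Prkcq and Lck, kinases typical of T cells, were at or below 0.083 TPM. In replicate 1, 2 of the 5 tested (Grb2 and Pik3cd) were lower and 0 higher. When target-table counts were used, 0 of 6 passed in edgeR. Grb2 was also lost without the count filter and without replicate 2 or 3.

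For IL-7Rα both receptor partners were detected. Il2rg, the common γ chain, was at 29.7 ± 7.29 TPM and Crlf2, the partner for TSLP, at 39.3 ± 3.18 TPM (SD, n = 4), beside 30.1 ± 2.81 TPM for Il7r. The cytokines were not, with Il7 at 0.028 TPM and Tslp at 0.44 TPM. The kinases Jak1 and Jak3 that act under the receptor were at 37.96 ± 7.31 and 5.13 ± 0.767 TPM, and the transcription factors Stat5b and Stat5a at 8.78 ± 1.79 and 4.77 ± 1.43 TPM. Bcl2, a survival gene, passed the test in replicate 1 (4.61 TPM, against 0.82, 1.02 and 1.12 TPM in replicates 2, 3 and 4, log2 fold change 2.03 ± 0.15, edgeR adjusted p = 0.00345), the only one of 10 tested genes to do so, and 0 were lower. DESeq2 called 3 of the 10 lower.

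For IgM, 5 of 10 list genes were detected, all of them cytoplasmic signalling proteins that macrophages share with B cells. Syk, a kinase, was at 66.9 ± 15.0 TPM and Blnk, an adaptor, at 42.1 ± 11.9 TPM. The parts of the receptor complex were not detected, with Cd79a at 0.025 TPM and Cd79b at 0.865 TPM. Nor were the receptors of soluble IgM, with Fcmr averaging 1.75 counts and Pigr at 0 counts, or Jchain, which averaged 5.5 counts. In replicate 1, Syk and Blnk were lower and Lyn was higher, 3 of 6 tested, and target-table counts kept the call of Lyn alone (log2 fold change 0.67, edgeR adjusted p = 0.0254). By edgeR the Lyn call was lost without replicate 3 (adjusted p = 0.0575) and without replicate 4 (0.0616), and that of Syk without replicate 2 (0.0599).

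For CD22, 6 of 11 genes of the family and signalling list were detected. Ptpn6, the phosphatase SHP-1 that CD22 recruits, was at 48.4 ± 8.60 TPM, Inpp5d, the lipid phosphatase SHIP-1, at 58.5 ± 16.4 TPM and St6gal1, which makes the sialic acid linkage that CD22 binds, at 14.01 ± 2.31 TPM (SD, n = 4). Among relatives, Siglec1, a macrophage sialic acid receptor, was at 22.8 ± 7.21 TPM and Cd33 at 11.5 ± 4.57 TPM, both above Cd22, while Siglecg, the other Siglec typical of B cells, averaged 2.25 counts. In replicate 1, Inpp5d was higher and St6gal1 lower, and the target tables kept neither call. Inpp5d passed with DESeq2 but in no edgeR alternative, and St6gal1 was also lost by edgeR without replicate 2 (adjusted p = 0.0521) and without replicate 3 (0.0611).

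For each of the 5 genes the 3 genes with the most similar library pattern were found among 10420 genes with a mean of at least 100 counts, by the largest absolute gap over the 4 libraries between log2 CPM deviations from the gene's own mean. With 4 libraries such likeness is a description. Cd28 was closest to Dedd2, Cyba and Lyl1, within 0.013 to 0.020, and 140 genes lay within 0.1 of it. Ptprs and Kmt2d were among the 3 closest to Cd22, with 40 genes within 0.1. Il7r was closest to Tmem220, Map3k9 and Akr1c12, with 4 genes within 0.1, and Cd4 to Cmpk2, Epb41l4aos and 2210011C24Rik, with 3. Ighm had no gene within 0.1, and its nearest were Nr4a3, Ciita and Gbp8 at gaps of 0.35, 0.39 and 0.44. Ciita deviated by -2.22, 0.55, 0.75 and 0.91 in replicates 1 to 4, where Ighm deviated by -2.47, 0.92, 0.36 and 1.19.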

How the data were processed

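Total RNA-seq of 4 libraries of 1 group was analysed. Per the file headers, the deposited gene and transcript tables hold expected counts, TPM and, for transcripts, the percent of the gene in each isoform, and the deposited target tables hold estimated counts and TPM. Per the text deposited with them, the gene tables rest on reads aligned to the transcriptome and the other set on the reads themselves, with mm10 and GENCODE M21. The aligner, quantifiers, versions and strand setting are not given in the sources here. The column layouts are those of RSEM and kallisto. Features that name no gene held 0.0267% to 0.407% of counts and were left out.

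Expected counts were rounded. Genes with a mean of at least 10 counts were tested, each replicate against the other 3, with edgeR 4.0.16 (TMM scaling, quasi-likelihood, Benjamini-Hochberg over all genes tested, threshold 0.05) under R 4.3.3. SEs were derived from the F statistic. Poisson deviance was tested on TMM-scaled totals. CPM are counts scaled to a common total of annotated genes, and log2 CPM used TMM scaling and a prior count of 2. Tests were checked on simulated data in which every library had the same spread, so the check cannot judge whether a lone replicate varies like the others. Alternatives were RLE scaling, no count filter, DESeq2 1.42.0, target-table counts, other TPM thresholds and scalings, and each library left out. Floors account for counting error alone, because the reads carry no molecular identifiers and are no independent molecules.

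The 5 genes and all lists were chosen with earlier results of these data known. Named are the 5 genes, members of the marker and pathway lists, features of the antigen receptors and the 3 nearest patterns of each gene. Trav13-4-dv7, Malat1, Neat1 and Gpr162 were named after their values were seen. Gene and transcript sequences are those of GENCODE M21. A few genes that these rules would name are not reported here.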

Additional observations from a re-analysis of the deposited data

How the results depend on the processing

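No paired analysis was possible because all 4 libraries belong to 1 group. For the count of genes that differed in replicate 1, 3096 in all, the alternatives ranged from 2525 to 3258, with 2525 to 3194 when 1 other library was left out. In replicate 2, DESeq2 called 8 genes, and leaving out a library gave 0 to 82, the 82 being without replicate 1. In replicate 3, DESeq2 called 3 and 0 were called whichever library was left out. In replicate 4, DESeq2 called 17, no count filter 1, and leaving out a library 0 to 1. The cause was not tested. Genes varying beyond counting numbered 8601 to 15376.

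Mean levels moved with the quantification and the TPM base. In the target tables Cd28, Il7r, Cd4 and Cd22 averaged 30.1, 10.9, 7.13 and 1.05 TPM. With TPM rescaled without the 7SL genes, Cd28, Il7r, Cd4, Ighm and Cd22 averaged 211.9, 75.0, 49.2, 10.4 and 6.14 TPM. Leaving out a library gave means of 76.1 to 90.9 TPM for Cd28 and 2.80 to 5.41 TPM for Ighm. At a threshold of 0.5 TPM, 3 of the 48 lymphocyte list genes were detected in place of 1.

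The lower counts of Ighm and Cd4 in replicate 1 passed in 7 of 7 alternatives, with log2 fold changes of -3.59 to -3.27 and -1.34 to -1.01, and Cd28 passed in 5 of 7, with -0.72 to -0.48 and adjusted p of 1.08e-07 to 0.147. Some changes that did not pass turned their sign when a library was left out. The log2 fold change then ranged from -0.45 to 0.0080 for Il7r in replicate 1, from -0.23 to 0.039 for Cd22 in replicate 2, from -0.037 to 0.30 for Cd28 and from -0.73 to 0.29 for Ighm in replicate 3, and in replicate 4 from -0.070 to 0.23 for Cd28, from -0.31 to 0.21 for Cd4 and from -0.11 to 0.18 for Cd22. Cd22 in replicate 4, at 0.00031 with TMM, was -0.0053 with RLE, -0.016 without a filter, -0.0054 with DESeq2 and -0.038 with target counts. Depth limits Ighm most, with 38 counts in replicate 1, and with 4 libraries the tests cannot separate a replicate from its preparation. No value among the 33 sets of 4 library values examined for an outlier stood apart by Dixon's test.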
